A study of Homo sapiens with 3 samples.

Results

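The EGFR family comprises the receptors EGFR, ERBB2, ERBB3 and ERBB4, and the 6 ligands examined with them were EGF, TGFA, AREG, EREG, HBEGF and BTC. These 10 genes were selected by gene name among the 39320 entries on reference sequences whose names hold no '_' sign, out of 43389 entries shared by all libraries, and all 10 were present in every library. RNA levels were measured by RNA sequencing in 3 libraries labelled as HepG2, replicates 1 to 3, from polyA RNA. HepG2 is an established human liver cancer cell line; the genotype is given as WT, and the methods describe culture in DMEM with fetal bovine serum and antibiotics. The study concerns splice variants of METTL3, the m6A methyltransferase, and lists EGFR among the transcripts that it assayed by RT-qPCR in transfected cells; those assays were not analysed here. The libraries form 1 condition, so levels could be compared between genes and between libraries but not between treatments.

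The ErbB receptors are tyrosine kinases of the cell surface that pair with each other when a ligand binds, and the pairs then signal through the RAS-MAPK and PI3K-AKT cascades. The ligands are made as membrane-bound precursors and are released by surface proteases. In liver, EGFR is known for its part in the proliferation of hepatocytes during regeneration, and its signalling is frequently altered in epithelial tumors.

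The label was first checked against marker genes, using TPM, a level scaled for gene length and to the same total in each library. All 8 housekeeping genes examined had at least 10 TPM in every library, and GAPDH was the most abundant. The hepatocyte list held 15 genes of secreted proteins. None of the libraries reached 1 TPM for 13 of them, and 10 were listed at 0 throughout: ALB, APOA1, APOA2, APOB, APOH, SERPINA1, FGA, FGB, FGG and AHSG. For AFP the libraries gave 0, 0.0239 and 0.0248 TPM. Only VTN and RBP4 reached 10 TPM on this list, and its summed level was 35.3, 33.6 and 34.5 TPM. The defining secreted markers of the hepatocyte lineage were thus at or near 0, against the label, and the values below hold for the libraries labelled HepG2.

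Among 6 epithelial genes, KRT8 and KRT18 had at least 10 TPM in every library, 3 were below 1 TPM in every library, and the summed level was 4772, 4593 and 4517 TPM with KRT8 most abundant. Among 7 mesenchymal genes, VIM, CDH2 and ZEB1 had at least 10 TPM, 2 were below 1 TPM, and the summed level was 797, 717 and 706 TPM with VIM most abundant. Of 5 blood and endothelial genes, 4 were below 1 TPM in every library, VWF was the most abundant, and the sum was 2.75, 2.81 and 2.54 TPM. The part of the cells' identity in the receptor and ligand levels was not tested. In bulk RNA, fewer cells expressing a gene and less of its RNA per cell cannot be told apart.

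With a gene counted as expressed at 1 TPM or more in every library, 5 of the 10 genes were expressed: the receptors EGFR and ERBB2 and the ligands HBEGF, TGFA and AREG. The same criterion was met by 33.8% of the 39320 entries and by 59.5% of the 18739 protein-coding entries. EGF reached 1 TPM in 2 of 3 libraries, and ERBB3, ERBB4, BTC and EREG were below 1 TPM in all of them. Within the group, the receptor RNA was mostly EGFR and the RNA of the 6 ligands mostly HBEGF, as the plot of levels by gene shows.

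**Figure D1:**
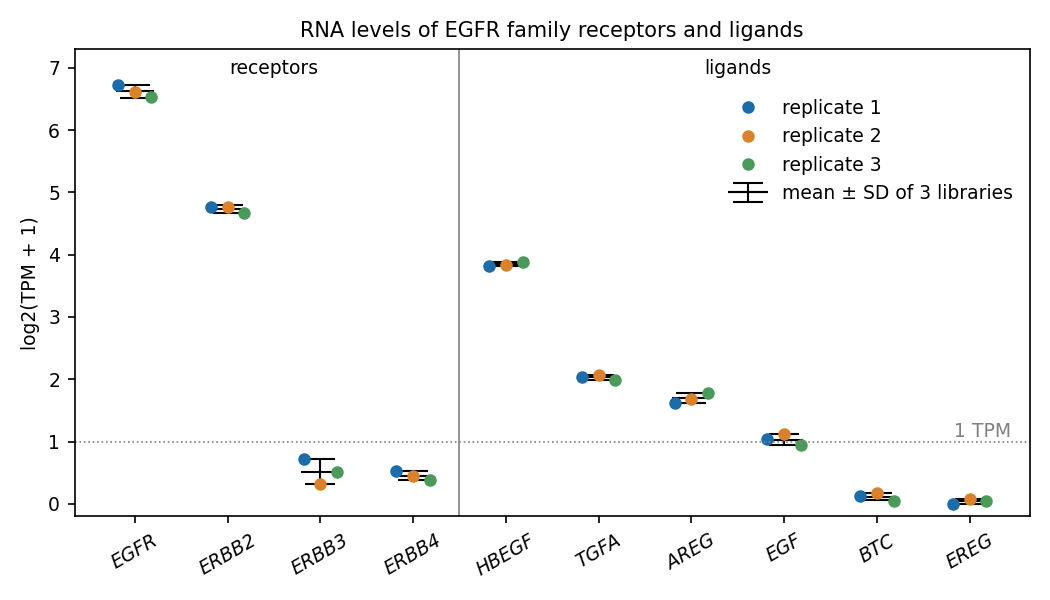
RNA levels of the 4 receptors and 6 ligands as log2(TPM + 1) in each of 3 libraries labelled HepG2 (colored points), with the mean and SD (black bars). The dotted line marks 1 TPM; EGFR lies highest among the receptors and HBEGF highest among these 6 ligands, and ERBB3, ERBB4, BTC and EREG lie below the line in every library.

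EGFR, the receptor for EGF, TGFA, AREG and the other ligands of this group, lies on the plus strand at chr7:55019017-55211628 (GRCh38). Its level was 105, 96.4 and 91.5 TPM in replicates 1, 2 and 3, a mean of 97.6 ± 6.80 TPM (SD, n = 3). Replicate 1 was highest and replicate 3 lowest, and the whole range covered 0.20 on the log2(TPM + 1) scale. Its mean FPKM, which is scaled for length and library size, was 46.5 ± 2.88 (SD, n = 3). By mean TPM, EGFR exceeded 88.8% of the 13753 genes that averaged 1 TPM or more. This percentage refers to deposited TPM alone, since the coverage of EGFR, described below, corresponded to only 21.1 TPM. For scale, METTL3, the gene that the study concerns, had 32.0 ± 1.34 TPM (SD, n = 3).

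The region of EGFR that the RT-qPCR assay reads is shown here because it does not lie in all annotated EGFR transcripts. The primers listed by the study, 20 nt each, bound an amplicon of 111 bp in the coding region of the transcript EGFR-201 of GENCODE v44. It spans exons 25 to 27 of 28 at chr7:55201352-55202575 (GRCh38, plus strand, introns included). In the transcript sequence, printed 5′ to 3′, capitals mark the forward primer and the complement of the reverse primer.
EGFR amplicon: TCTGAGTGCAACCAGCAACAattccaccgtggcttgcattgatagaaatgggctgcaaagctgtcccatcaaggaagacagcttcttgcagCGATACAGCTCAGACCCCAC
Both primers matched 5 of the 13 annotated EGFR transcripts and 0 transcripts of other genes, in a search of 252835 transcripts without mismatches. Of the 7 EGFR transcripts annotated as protein coding, 3 held both primers and 3 others, of 1570 to 2872 nt, ended before the amplicon. The sequencing tables give a single value over all EGFR transcripts, and whether that value includes transcripts without the amplicon was not tested.

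**Figure D2:**
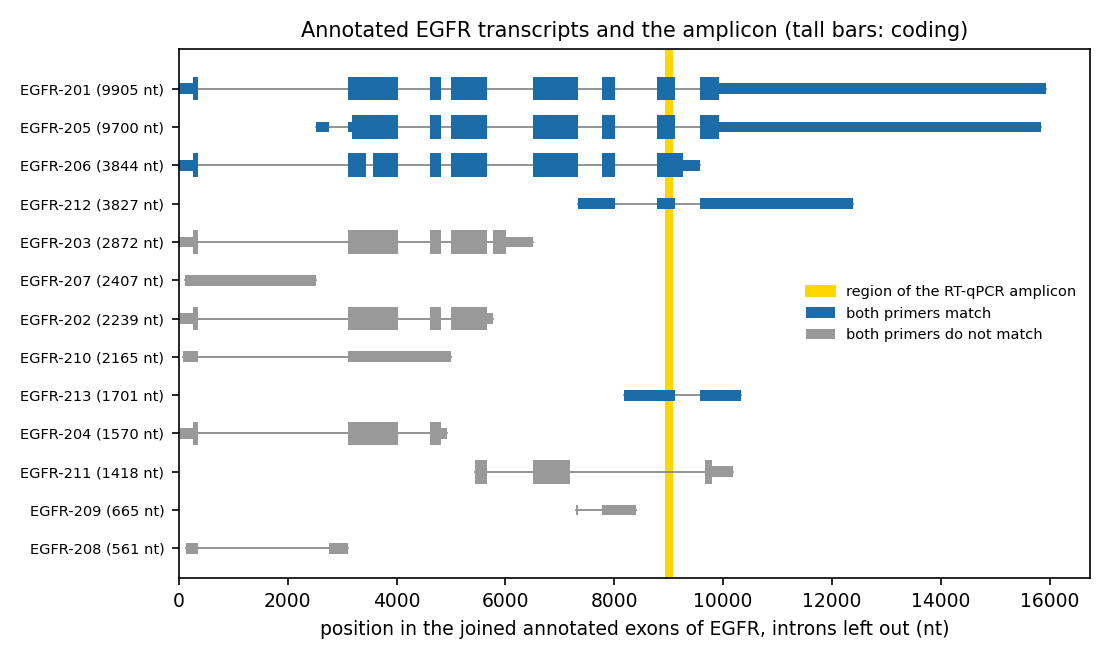
Annotated EGFR transcripts of GENCODE v44 drawn over their joined exons (x axis in nt, introns left out), with coding parts as tall bars and the RT-qPCR amplicon region shaded. Transcripts in blue match both primers (5 of 13) and those in grey do not; 3 protein-coding transcripts end before the shaded region.

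ERBB2, the receptor with no known ligand of its own and the common partner of the others, lies on the plus strand at chr17:39688084-39728662. It had 26.1, 26.3 and 24.4 TPM in replicates 1, 2 and 3, a mean of 25.6 ± 1.07 TPM (SD, n = 3). This mean exceeded 63.2% of the genes that averaged 1 TPM or more, while the coverage of ERBB2, described below, corresponded to 9.43 TPM. The TPM values of ERBB2 lay below those of EGFR in every library, with no overlap.

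ERBB3, a neuregulin receptor with a weak kinase (chr12:56080025-56103507, plus strand), had 0.652, 0.247 and 0.422 TPM, or 0.440 ± 0.203 TPM (SD, n = 3). ERBB4, a receptor for neuregulins and for HBEGF and BTC (chr2:211375717-212538802, minus strand), had 0.443, 0.355 and 0.308 TPM, or 0.369 ± 0.0684 TPM (SD, n = 3). Both were near the low end of the scale, and their ranges overlapped. Coverage, taken as the mean read depth over a gene and not scaled for library size, was 2.21, 0.718 and 1.21 for ERBB3 and 2.67, 2.10 and 1.63 for ERBB4. These are low on the deposited scale, on which EGFR was above 100 in every library. Their coefficients of variation were 46.1% and 18.6%, against 6.97% for EGFR and 4.18% for ERBB2.

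EGFR made up 79.4%, 78.2% and 78.5% of the summed TPM of the 4 receptors, a mean of 78.7% ± 0.646 (SD, n = 3). ERBB2 took 20.7% ± 0.815, ERBB3 0.352% ± 0.147 and ERBB4 0.296% ± 0.0361 (SD, n = 3). The sum was 132, 123 and 117 TPM. The shares of EGFR and ERBB2 moved little between libraries, while that of ERBB3 was 0.493%, 0.200% and 0.362%.

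The difference between EGFR and each other receptor was then tested within libraries on the log2(TPM + 1) scale. EGFR exceeded ERBB2 by 1.89 ± 0.07 (SD, n = 3), a ratio of TPM of 3.81 ± 0.184. The difference was 6.10 ± 0.16 over ERBB3 and 6.17 ± 0.03 over ERBB4 (SD, n = 3), and the pseudocount of 1 holds both down because those receptors were below 1 TPM. EGFR was higher in 3 of 3 libraries in each comparison. By a two-sided exact permutation test that flips signs, p was 0.25 for each of the 3 comparisons, and 0.25 after Benjamini-Hochberg adjustment, and 3 libraries cannot give a smaller p.

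HBEGF, the heparin-binding ligand of EGFR and ERBB4, lies on the minus strand at chr5:140332843-140346603. It had 13.2, 13.2 and 13.8 TPM in replicates 1, 2 and 3, a mean of 13.4 ± 0.335 TPM (SD, n = 3). By TPM, its coefficient of variation of 2.50% lay at percentile 18.6 of the 8419 genes that averaged 10 TPM or more, whose median was 4.88%. EGFR, with 6.97%, lay at percentile 72.7. This contrast reversed under median-of-ratios scaling, which sets the libraries to a common median ratio over genes: HBEGF then had 5.17%, at percentile 63.8, and EGFR 4.01%, at percentile 48.8. Which of the 2 genes varied more therefore depended on the scaling. A range of log2(TPM + 1) above 1 was found in 0 of the 3 genes of the group at this level, EGFR, ERBB2 and HBEGF, and in 0.273% of the 8419 genes.

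TGFA, a ligand of EGFR alone (chr2:70447280-70554015, minus strand), had 3.09, 3.20 and 2.95 TPM, or 3.08 ± 0.124 TPM (SD, n = 3). AREG, another ligand of EGFR (chr4:74445136-74455005, plus strand), had 2.06, 2.23 and 2.42 TPM, or 2.24 ± 0.183 TPM (SD, n = 3). EGF (chr4:109912883-110013079, plus strand) had 1.05, 1.17 and 0.917 TPM, or 1.05 ± 0.125 TPM (SD, n = 3). The 3 ligands kept this order in every library, with no overlap between their ranges, and EGF lay on both sides of the 1 TPM minimum.

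BTC, a ligand of EGFR and ERBB4 (chr4:74744759-74794718, minus strand), had 0.0892, 0.124 and 0.0351 TPM, and its coverage was 0.257, 0.351 and 0.0888. EREG, also a ligand of EGFR and ERBB4 (chr4:74365145-74388749, plus strand), was listed at 0, 0.0570 and 0.0353 TPM, with a coverage of 0, 0.350 and 0.194. Both had a deposited coverage below 1 in every library, and their ranges overlapped. The number of reads behind these values is unknown. AREG, EREG, BTC and EGF lie on chromosome 4, with EGF apart from the others by position.

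The ligands together reached 19.5, 20.0 and 20.1 TPM. HBEGF made up 67.7%, 66.1% and 68.4% of this sum, a mean of 67.4% ± 1.17 (SD, n = 3). TGFA took 15.5% ± 0.734, AREG 11.2% ± 0.734 and EGF 5.27% ± 0.654 (SD, n = 3), and BTC and EREG each took less than 1% in every library. By coverage, which is not scaled for library size, the ligand sum was 119, 118 and 108.

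In order of mean TPM the genes ran EGFR, ERBB2, HBEGF, TGFA, AREG, EGF, ERBB3, ERBB4, BTC and EREG. Of the 9 neighbouring pairs, 7 differed beyond their spread, meaning that the ranges did not overlap and the mean difference of log2(TPM + 1) exceeded its SD. The smallest such difference was 0.34 ± 0.11 (SD, n = 3), between TGFA and AREG and between ERBB4 and BTC, the latter with an SD of 0.07. ERBB3 and ERBB4 did not differ beyond their spread, at 0.07 ± 0.16 (SD, n = 3), and neither did BTC and EREG, at 0.07 ± 0.06 (SD, n = 3). The order describes the same values from which it was taken.

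Coverage gave a different picture for some of these genes. In genes with 1 transcript in RefSeq, coverage divided by FPKM had a median of 13.3, 12.8 and 11.5 in replicates 1, 2 and 3, and 82.2%, 81.6% and 81.7% of those genes lay within 1% of it. Relative to that median, EGFR was at 0.218, 0.215 and 0.216. ERBB2 was at 0.379, 0.363 and 0.362. HBEGF and AREG, which have 1 RefSeq transcript each, were at 1.00 in every library. EGFR and ERBB2, 2 of the 5 expressed genes of the group, were thus below 0.5 in every library, as were 27.6% of the 13307 expressed genes.

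In RefSeq, EGFR has 11 transcripts and ERBB2 has 32. ERBB4 also has 11 and was at a mean of 0.962, with levels below 1 TPM. TGFA, EGF and ERBB3, with 4 transcripts each, were at 0.876, 0.839 and 0.511, and BTC, with 5, was at 0.460. The tables do not divide a gene's value among its transcripts, and the cause of the low ratios of EGFR and ERBB2 was not tested.

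**Figure D3:**
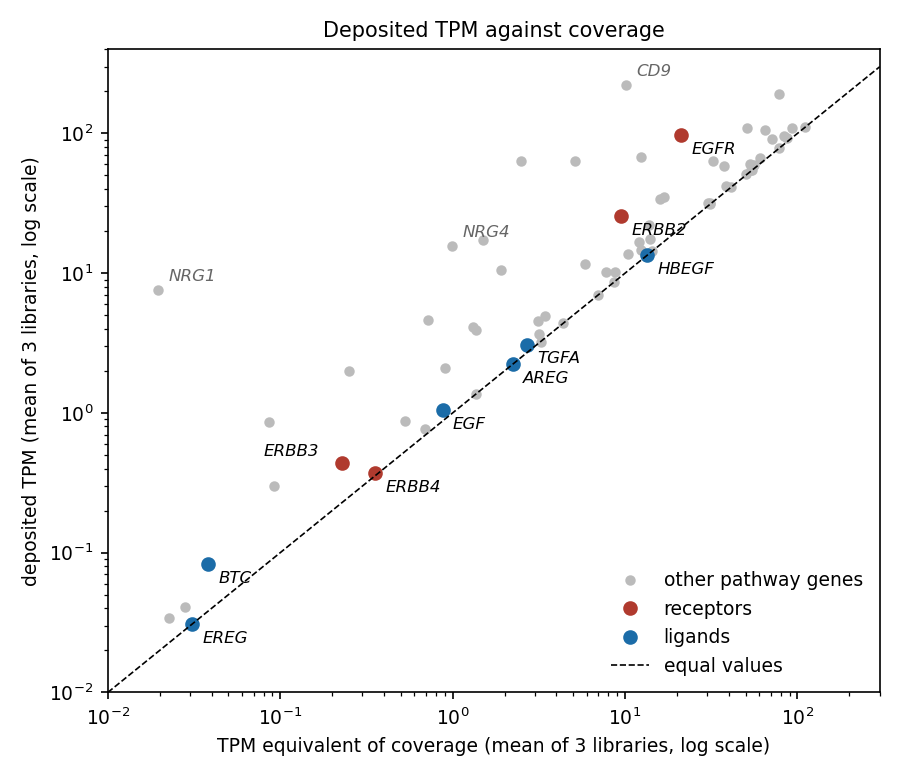
Deposited TPM against the TPM that coverage would give, as means of 3 libraries on log axes, for the receptors (red), the ligands (blue) and other genes of the pathway (grey). On the dashed line both are equal; HBEGF and AREG lie on it, while the deposited TPM was 4.63 times as high for EGFR and 2.72 times as high for ERBB2. NRG3, listed at 0, cannot be shown on log axes.

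The coverage of EGFR was 143, 127 and 109 in replicates 1, 2 and 3, that of HBEGF 82.6, 81.2 and 75.8, and that of ERBB2 62.1, 58.8 and 48.5. EGFR was highest of the group on this measure as well. HBEGF, in contrast, was above ERBB2 in 3 of 3 libraries by coverage and below it in 3 of 3 by TPM, and ERBB4 was likewise above ERBB3 by coverage. Expressed on the TPM scale, the coverage of EGFR corresponded to 21.1 ± 1.58 TPM and that of ERBB2 to 9.43 ± 0.547 TPM (SD, n = 3). METTL3 corresponded to 29.5 ± 1.42 TPM (SD, n = 3), above EGFR, whereas by deposited TPM it was below EGFR. Within EGFR the ratio of coverage to FPKM was nearly fixed, at 0.218, 0.215 and 0.216 of the median of genes with 1 RefSeq transcript. The libraries therefore do not bear separately on this change of order. Which measure is closer to RNA abundance was not tested.

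By coverage, EGFR exceeded ERBB2 by 1.15 ± 0.05 on the log2(coverage + 1) scale, a ratio of 2.24 ± 0.0712 (SD, n = 3). The difference was 5.78 ± 0.39 over ERBB3 and 5.35 ± 0.05 over ERBB4 on this scale (SD, n = 3). EGFR made up 67.8% ± 0.388 of the summed receptor coverage and ERBB2 30.3% ± 0.796 (SD, n = 3). The leading receptor and the leading ligand of the group were therefore the same on both measures, while the margin of EGFR over ERBB2 was smaller by coverage.

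The sequence before the start of 9 of the 10 genes was taken from RefSeq (GRCh38.p14); ERBB3 had no match. The start in that source equals the start of the deposited entry for 6 of the 9 genes and lies inside the entry for 3, by 189 bases for TGFA, 195 for BTC and 10 for ERBB2. The 250 bases before the RefSeq start were searched for the GC box (GGGCGG or CCGCCC, so that both strands were covered, overlapping matches counted) and for TATAAA or TTTATA. The promoters of EGFR and HBEGF, the receptor and, of the 6 ligands of the group, the ligand with the highest TPM, and of EREG, a ligand listed at or near 0, are shown 5′ to 3′ on the strand of the gene. They lie at chr7:55018767-55019016 (plus), chr5:140346604-140346853 (minus) and chr4:74364895-74365144 (plus). Capitals mark GC boxes in EGFR and HBEGF and the TATAAA match in EREG.
EGFR: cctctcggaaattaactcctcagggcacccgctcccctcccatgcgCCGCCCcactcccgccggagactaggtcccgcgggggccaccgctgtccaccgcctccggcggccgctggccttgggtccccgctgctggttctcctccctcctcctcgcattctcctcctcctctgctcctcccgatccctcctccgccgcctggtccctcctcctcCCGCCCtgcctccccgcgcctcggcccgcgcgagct
HBEGF: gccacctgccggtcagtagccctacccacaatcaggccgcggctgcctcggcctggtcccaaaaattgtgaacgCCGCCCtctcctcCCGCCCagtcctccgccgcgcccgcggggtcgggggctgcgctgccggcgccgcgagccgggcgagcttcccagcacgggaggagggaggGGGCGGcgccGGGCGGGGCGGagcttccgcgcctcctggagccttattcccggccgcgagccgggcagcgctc
EREG: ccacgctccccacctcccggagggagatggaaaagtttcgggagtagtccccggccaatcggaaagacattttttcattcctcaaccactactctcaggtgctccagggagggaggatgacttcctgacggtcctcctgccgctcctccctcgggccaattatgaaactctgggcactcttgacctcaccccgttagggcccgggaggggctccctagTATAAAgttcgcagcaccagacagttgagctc
The EGFR window held 2 GC boxes and 25 CpG dinucleotides, with a GC content of 73.6%. The HBEGF window held 5 GC boxes and 33 CpG, with a GC content of 76.4%. EREG had 0 GC boxes, 11 CpG and a GC content of 58%, which equals the median of 58% over all 35116 promoters. Of the promoters not shown, that of TGFA held 3 GC boxes, those of ERBB4 and AREG 1 each, and those of ERBB2, EGF and BTC 0.

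A GC box was found in 5 of the 9 promoters of the group, against 42.6% of all 35116 promoters, and a TATAAA match in 2, AREG and EREG, against 10.7% of all. TGFA is among the 5, with a window that lies mostly inside the deposited entry; of the 6 genes whose starts are equal in both sources, 4 held a GC box. These are matches of letters in the reference sequence, and binding at them was not measured.

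The further genes of the pathway were described by role from a list of 63 genes, chosen with earlier results of these data known, of which 56 had at least 1 TPM in every library and 40 at least 10 TPM. Of all 18739 protein-coding entries, 59.5% reached 1 TPM and 40.4% reached 10 TPM in every library. The median of the list was 17.2 TPM. The 7 genes below 1 TPM in every library were EPGN, NRG2, NRG3, GAB1, SPRY1, SPRY4 and DUSP6. With coverage put on the TPM scale 51 genes met the minimum, and the 5 that no longer did were NRG1, NRG4, PIK3CA, PIK3R1 and CBLB, named after their values were seen. The share of all entries that meets the minimum by coverage was not calculated. This count and the counts by role on that scale therefore stand without a background.

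Of the 5 other ErbB ligands, which are epigen (EPGN) and the neuregulins, 2 were expressed by TPM. NRG4, a ligand of ERBB4, had 16.4, 15.3 and 15.6 TPM, or 15.8 ± 0.559 TPM (SD, n = 3), which was above HBEGF in every library. NRG1, a ligand of ERBB3 and ERBB4, had 8.55, 7.44 and 6.86 TPM, or 7.62 ± 0.857 TPM (SD, n = 3). Coverage gave lower levels. It was 6.47, 5.93 and 5.29 for NRG4 and 0.137, 0.116 and 0.0965 for NRG1. On the TPM scale this corresponded to 0.987 TPM for NRG4 and 0.0195 TPM for NRG1, as means of 3 libraries. Over all 11 ErbB ligands, NRG4 made up 36.1% ± 0.668 and HBEGF 30.8% ± 1.37 of the summed TPM (SD, n = 3). By coverage the order was reversed, with 65.7% ± 0.913 for HBEGF and 4.84% ± 0.267 for NRG4 (SD, n = 3). NRG3 was listed at 0 in all libraries.

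All 7 genes for ligand release and trafficking were expressed, with a median of 34.9 TPM, or 12.3 TPM by coverage on the TPM scale. CD9, a tetraspanin that associates with the HBEGF precursor, was highest at 229, 211 and 227 TPM, although its coverage corresponded to only 10.1 TPM. By coverage on the TPM scale NRDC, named after its values were seen, was highest instead, at 93.0 TPM. RHBDF2, an inactive rhomboid needed for maturation of the protease ADAM17, was lowest at 3.91 ± 0.504 TPM (SD, n = 3), or 1.37 TPM by coverage. ADAM17 itself, the main sheddase of TGFA, AREG and HBEGF and named after its values were seen, had 10.6, 9.73 and 10.3 TPM.

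**Figure D4:**
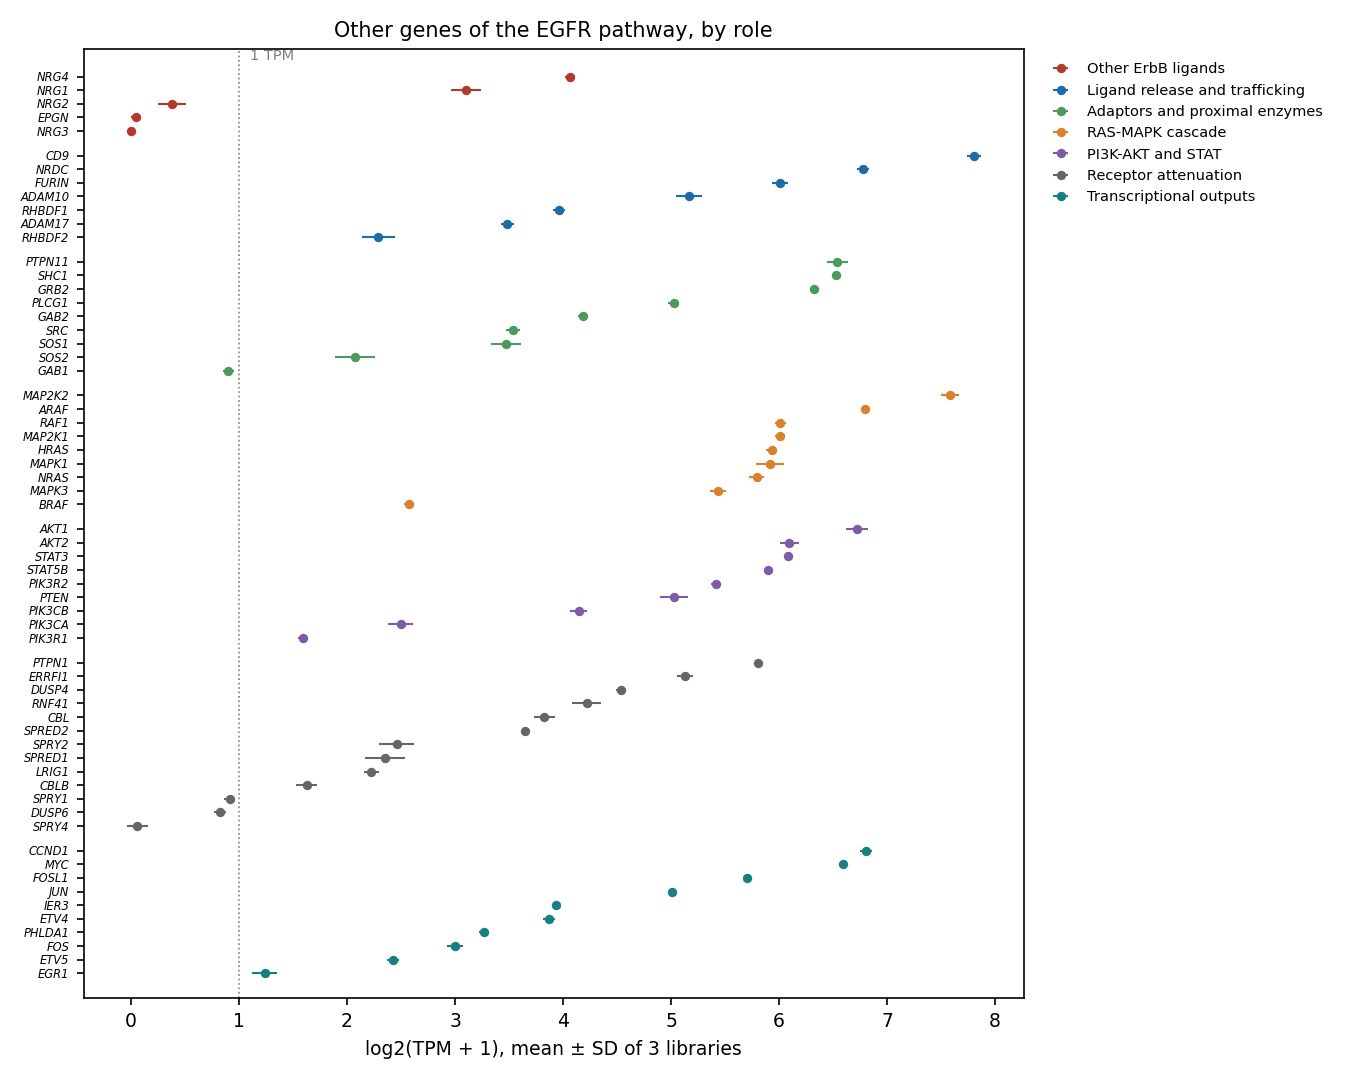
Levels of further genes of the EGFR pathway as log2(TPM + 1), mean and SD of 3 libraries, grouped by role. The dotted line marks 1 TPM; all genes shown of the RAS-MAPK, PI3K-AKT and STAT, ligand release and transcriptional output groups lie above it.

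Of 9 adaptors and proximal enzymes, 8 were expressed, with a median of 17.2 TPM, or 8.73 TPM by coverage on that scale. By mean TPM, the phosphatase gene PTPN11 was highest at 92.2 ± 6.27 TPM and the docking protein gene GAB1 lowest at 0.868 ± 0.0649 TPM (SD, n = 3). SHC1, named after its values were seen, had 91.2 ± 0.700 TPM (SD, n = 3). In replicates 2 and 3 SHC1 was above PTPN11, at 90.8 and 92.0 TPM against 89.0 and 88.2 TPM. All 10 genes of the RAS-MAPK cascade were expressed, from BRAF at 4.94 ± 0.177 TPM to MAP2K2 at 191 ± 11.4 TPM (SD, n = 3), with a median of 59.8 TPM. All 9 PI3K-AKT and STAT genes were expressed as well, from the regulatory subunit gene PIK3R1 at 2.01 ± 0.0915 TPM to AKT1 at 105 ± 7.59 TPM (SD, n = 3). By coverage on the TPM scale 7 of these 9 met the minimum, PIK3R1 corresponded to 0.252 TPM and AKT1 to 64.5 TPM. On that scale MAP2K2 corresponded to 77.8 TPM and GAB1 to 0.0856 TPM. The lowest gene of the RAS-MAPK cascade by coverage was MAP2K1, named after its values were seen, at 2.50 TPM.

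Of 13 genes that attenuate the receptors or the signalling below them, 10 were expressed, with a median of 4.52 TPM, and 9 met the minimum by coverage on the TPM scale. PTPN1, a phosphatase that acts on EGFR, was highest at 55.0 ± 1.64 TPM (SD, n = 3). SPRY1 (0.882 ± 0.0641 TPM) and DUSP6 (0.771 ± 0.0663 TPM), feedback inhibitors of the MAPK cascade, were just below the minimum (SD, n = 3), and SPRY1 corresponded to 0.526 TPM by coverage. SPRY4 was listed at 0.123, 0 and 0 TPM.

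All 10 genes known as transcriptional outputs of the pathway were expressed, with a median of 14.0 TPM. CCND1, the cyclin of early G1, was highest at 111 ± 4.51 TPM, and the immediate early gene EGR1 was lowest at 1.36 ± 0.189 TPM (SD, n = 3). Their levels in unstimulated and stimulated cells could not be compared, since the data have 1 condition.

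For each expressed gene of the group, the 2 listed pathway genes with the most similar levels were found by the Euclidean distance of log2(TPM + 1) over 3 libraries. EGFR was closest to MYC, at a distance of 0.128, and to PTPN11, at 0.147. HBEGF was closest to ETV4, at 0.130, and IER3, at 0.175. ERBB2 was closest to DUSP4 (0.346) and JUN (0.496), TGFA to SOS2 (0.275) and LRIG1 (0.346), and AREG to PIK3R1 (0.223) and CBLB (0.277). These neighbours depend on the measure. With coverage put on the TPM scale, the distance of EGFR was 3.36 to MYC and 3.44 to PTPN11. The distance of HBEGF to IER3 was 0.175 by both measures and that of TGFA to LRIG1 fell to 0.307, while the distances to the other neighbours rose. Of the 10 neighbours by TPM, only LRIG1, beside TGFA, was again among the 2 closest.

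Other entries overlapped EGFR, ERBB2, ERBB3, ERBB4 and TGFA. MIEN1, on the opposite strand, shares 163 bp with the 3′ end of ERBB2 and had 55.4 ± 4.68 TPM (SD, n = 3), above ERBB2 itself. EGFR-AS1, an antisense RNA within EGFR over 9200 bp, had 0.887, 0.747 and 0.740 TPM, and LOC105375284, which shares 192 bp with the 5′ end of EGFR, had 1.07, 0.899 and 0.638 TPM. MIR4728 within ERBB2 had 0.478, 0.860 and 2.43 TPM. LOC105369782, which overlaps ERBB3 over 950 bp, was listed at 0, 0 and 0.532 TPM. MIR548F2 within ERBB4 was listed at 0 in every library, and TGFA-IT1 and LOC107985895 within TGFA were each above 0 in 1 library. The strand setting is not given in the sources used here, so reads from bases shared with entries on the opposite strand cannot be told apart. MIR4728, MIR548F2, TGFA-IT1 and LOC107985895 lie on the same strand as the gene they overlap, where strand does not separate the reads. The EGFR antisense RNA had less than 1% of the TPM of EGFR in every library.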

How the data were processed

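RNA-seq was analysed in 3 libraries labelled HepG2. The study's methods give paired-end reads of 150 bp mapped to GRCh38. The submitters' processing notes name FastQC 0.11.8, Trim Galore 0.6.2, STAR 2.6.1a and StringTie; the annotation and the strand setting are not given in the sources used here. The coverage deposited by the authors is taken as the mean read depth per base of a gene, not scaled for library size. The FPKM deposited by the authors is taken as relative to library size and to a length. Coverage and FPKM were not related by 1 fixed factor per library. Relative to genes with 1 RefSeq transcript, their ratio averaged 0.216 in EGFR and 1.00 in HBEGF. The lengths behind the 2 measures are not given in the sources used here, so they cannot be read as scaled by the same length. The TPM deposited by the authors has an equal total in every library, and 1 FPKM equalled 2.12 TPM in replicate 1 and 2.09 TPM in both others.

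The tables hold no read counts, so counting error could not be given, and precision is given as the SD over libraries. Coverage per FPKM in genes with 1 RefSeq transcript was 13.3, 12.8 and 11.5, lowest in replicate 3. No source says that the replicates came from separate cultures, so SDs measure only the spread between these samples, which may be technical. The p-value of the permutation test does not measure that spread. It is fixed by the number of libraries where the difference has the same sign in all of them. At most 7 of 19099 entries above 0 in both libraries of a pair, replicates 1 and 3, had the same TPM, so no library was a copy of another.

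Entries were joined by gene, strand and coordinates. The genes of the group, the pathway list and the marker lists were chosen with earlier results of these data known. Named were all genes of the group, the highest and lowest pathway gene of each role, those below 1 TPM in all libraries, the 2 closest to each expressed gene of the group, overlapping entries, the markers and METTL3. Other genes are named as chosen after their values were seen. The level of 1 pathway gene is not reported here. EGFR was compared with each other receptor by the log2 ratio with a pseudocount of 1 and an exact two-sided permutation test in which signs were flipped. Coverage was put on the TPM scale by dividing it by the coverage per FPKM of genes with 1 RefSeq transcript and multiplying by TPM per FPKM. Only the range calculation was run on simulated libraries, with changes set well beyond its limit, which checks the code alone. The permutation test and the Benjamini-Hochberg adjustment were checked on a few made-up values. Primers were matched to GENCODE v44 transcripts without mismatches. The alternatives were other minimums, pseudocounts and scalings, FPKM or coverage in place of TPM, and leaving out each replicate. Python 3.11.15, numpy 2.4.6, pandas 2.3.3, scipy 1.17.1 and matplotlib 3.10.9 were used.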

Additional observations from a re-analysis of the deposited data

How the results depend on the processing

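The number of expressed genes of the group, 5, became 8 with a minimum of 0.1 TPM and 3 with a minimum of 10 TPM, since the minimum itself sets it. Of the protein-coding entries, 40.4% reached 10 TPM in every library. The shares of all entries at 0.1 TPM, under the other scalings and with a replicate left out were not calculated. The counts below under those settings, also of the pathway genes, stand without a background. It was 6 without replicate 3 or without mitochondrially encoded genes, where EGF passed, and 5 with replicate 1 or 2 left out. The EGFR share of receptor TPM, 78.7%, was 67.8% by coverage, and the HBEGF share of ligand TPM, 67.4%, was 69.5% by coverage; the cause was not tested. By coverage 4 genes changed rank, ERBB2 with HBEGF and ERBB3 with ERBB4. EGFR remained above ERBB2 under each alternative, by 1.85 to 1.92 on the log2 scale with a replicate left out, 1.92 with a pseudocount of 0.1, 1.85 by FPKM and 1.15 by coverage. Genes with a range above 1 numbered 23, and 173 with a minimum mean of 1 TPM, or 0.273% of 8419 and 1.26% of 13753 genes; the cause was not tested. They numbered 10 to 16 with a replicate left out, 10 without replicate 2 and 15 without replicate 1, and a range cannot grow when a library is removed. The pathway genes expressed numbered 56, and 51 by coverage on the TPM scale, 58 without mitochondrially encoded genes, where GAB1 and SPRY1 passed, 60 with a minimum of 0.1 TPM and 40 with a minimum of 10 TPM. That scale, the comparison of spread by scaling and the sum over 11 ligands were chosen after the data were seen. Scaling without mitochondrially encoded genes raised all 10 levels by a factor of 1.25. No paired analysis was possible because there is no second condition whose libraries could be paired with these; the receptors were compared within each library. The unknown number of reads limits the values of ERBB3, ERBB4, BTC and EREG, which were below 1 TPM.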
